A study of Mus musculus with 8 samples.

Results

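Matrix metalloproteinases (MMPs) and the tissue inhibitors of metalloproteinases (TIMPs) were followed in the subcutaneous fat of diabetic mice given niacin-bound chromium (NBC) or water. The set was made up of every probe set annotated to exactly 1 of 10 genes, namely the 6 proteinase genes Mmp2, Mmp3, Mmp9, Mmp11, Mmp14 and Mmp19 and the 4 inhibitor genes Timp1, Timp2, Timp3 and Timp4. These were 24 of the 45037 probe sets of the array that were not controls, 11 for the proteinases and 13 for the inhibitors. Per the labels and the series design, 4 male mice were gavaged with NBC in water (10 mg per kg body weight) on 5 days per week for 10 weeks, and 4 male mice received water alone on the same schedule (placebo). All 8 mice were described as diabetic and as 8 weeks old, without a statement of when in the study that age applied, and their strain is not given in the sources used here. Total RNA of each mouse was hybridised to an Affymetrix mouse genome chip of its own, whose probe sets are groups of short probes that each read 1 stretch of a transcript. The mice were numbered 13, 11, 9 and 5 (NBC) and 6, 8, 10 and 14 (placebo). Values are MAS5 signal intensities on a linear scale, and a log2 difference is NBC minus placebo on the scale log2(signal + 26), which understates the change of dim transcripts.

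MMPs are zinc-dependent enzymes that cut collagens, other matrix proteins and many signalling proteins outside the cell, and most are secreted as inactive precursors. TIMPs bind the active site and block it. The membrane-bound enzyme Mmp14 is activated inside the cell by furin, and at the cell surface it activates the precursor of Mmp2 in a complex that uses Timp2 as a bridge, so that Timp2 can act both as an inhibitor and as part of an activating complex. In fat, turnover of the pericellular collagen network accompanies adipocyte growth, and fibroblasts, macrophages and vessel cells make much of the machinery.

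Promoter sequences from RefSeq (GRCm38.p6) were matched by symbol for 7 of the 10 genes (Mmp3, Mmp11, Mmp14 and all 4 Timp genes), 1 window each from 250 bases before to 50 bases after the annotated start. The 4 below belong to the genes in which at least 1 probe set separated the NBC from the placebo mice. They lie at chr9:7445572-7445871 (plus strand), chr14:54431348-54431647 (plus strand), chr11:118355362-118355661 (minus strand) and chr6:115252156-115252455 (minus strand). Capitals mark matches, on either strand, to TGANTCA (the AP-1 element), TATAAA (the TATA box) and GGGCGG (the GC box), and marked matches that touch or overlap appear as 1 run.
Mmp3 promoter: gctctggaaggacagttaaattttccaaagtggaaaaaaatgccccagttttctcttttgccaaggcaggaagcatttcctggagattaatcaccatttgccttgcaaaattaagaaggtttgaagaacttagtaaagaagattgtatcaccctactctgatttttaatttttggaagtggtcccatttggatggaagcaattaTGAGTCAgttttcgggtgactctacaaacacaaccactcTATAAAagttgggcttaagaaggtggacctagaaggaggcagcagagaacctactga
Mmp14 promoter: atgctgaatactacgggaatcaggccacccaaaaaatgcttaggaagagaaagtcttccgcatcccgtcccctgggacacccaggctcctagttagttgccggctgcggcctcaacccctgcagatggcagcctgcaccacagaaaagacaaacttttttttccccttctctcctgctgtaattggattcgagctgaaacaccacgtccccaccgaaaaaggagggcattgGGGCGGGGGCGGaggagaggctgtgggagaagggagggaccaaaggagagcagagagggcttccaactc
Timp2 promoter: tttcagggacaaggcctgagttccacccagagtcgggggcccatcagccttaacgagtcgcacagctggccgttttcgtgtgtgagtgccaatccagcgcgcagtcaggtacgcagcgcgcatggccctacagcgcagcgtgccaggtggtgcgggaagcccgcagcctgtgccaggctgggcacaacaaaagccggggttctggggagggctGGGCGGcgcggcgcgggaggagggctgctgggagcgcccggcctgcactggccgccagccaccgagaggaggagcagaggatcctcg
Timp4 promoter: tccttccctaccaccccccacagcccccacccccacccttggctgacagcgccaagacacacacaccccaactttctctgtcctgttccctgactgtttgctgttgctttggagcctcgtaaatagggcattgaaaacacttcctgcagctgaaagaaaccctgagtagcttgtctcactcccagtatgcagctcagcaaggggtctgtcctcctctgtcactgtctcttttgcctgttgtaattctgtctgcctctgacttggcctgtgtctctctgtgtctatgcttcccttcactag
Mmp3 was the only one of the 7 windows with an AP-1 match, which began 46 bases before the start, and the only one with a TATA match, 7 bases before it. Over all 32851 windows of the same length, 7.81% held the AP-1 letters, 13.6% the TATA letters and 35.7% the GC box. The Mmp14 window held 2 GC boxes, beginning 19 and 13 bases before the start, and the Timp2 window held 1, at 37 bases. No match to these 3 motifs was found in the Timp4 window. The ETS core AGGAAN, left in lower case, was found in 66.6% of all windows. Its matches numbered 2 in the Mmp3 window, at 183 and 175 bases before the start, 1 each in the Mmp14 and Timp4 windows, and 0 in the Timp2 window. G and C made up 40.0% of the Mmp3 window and 68.7% of the Timp2 window, against a median of 52.7% over all windows. A match is a description of letters and not a sign that a factor bound there.

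The arrays were alike in scale, with a mean signal (trimmed by 2% at each end) of 1500 on each and median signals of 286 to 329.6 in NBC and 286 to 323 in placebo mice. Some arrays stood apart in ways that touch the values below. The summed signal of 8 skeletal muscle markers was 128959 in NBC mouse 13, 143038 in 11 and 135401 in 5, but 15361 in NBC mouse 9 (4202 to 20243 in the placebo mice). The ratio of the 3′ to the 5′ Gapdh control signal, a sign of RNA integrity that is higher where RNA is shorter, was 1.12 in NBC mouse 13, 1.28 in 11, 0.844 in 9 and 1.47 in 5, and the 4 placebo mice lay between 0.924 and 1.04. All 6 of the 8 adipocyte markers that the annotation named (Adipoq, Cidec, Lep, Fabp4, Lipe and Pnpla2) passed the filter on low signals, and their sum was 421363 to 480672 in NBC mice and 420848 to 515690.0 in placebo mice. Of 11 marker sums, only the fibroblast sum did not overlap between the groups, at 121962 to 137520.0 in NBC mice and 103899 to 118813 in placebo mice. That list holds Pi16, Pdgfrb and Col14a1, which earlier results on these arrays had already put forward, so its separation is a description. Taken singly, only those 3 genes separated the groups, while Pdgfra, Dpt, Dcn, Lum and Thy1 overlapped. All 8 genes of the list passed the filter, and the part of the fibroblast sum in the values of the members was not tested. The macrophage sum was 105993 to 186484 in NBC mice and 85934 to 130024 in placebo mice, with the highest value in NBC mouse 13 and the lowest in placebo mouse 10. NBC mouse 13 also had the highest mast cell sum (21886, against 7869 to 10119 in the other NBC mice and 6750.5 to 8543 in placebo mice).

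The comparison of NBC with placebo mice asked which of these genes differed in signal after supplementation. No member passed the adjusted threshold of 0.05 in limma's moderated test, and neither did any probe set of the array (0 of 22519 tested, 0% called, with 1400 at an unadjusted p under 0.05). Without NBC mouse 9, 18 probe sets of the array passed, none of them a member. The groups separated completely, with all 4 NBC values above or below all 4 placebo values, for 6 of the 23 member probe sets that passed the filter, 5 higher and 1 lower in NBC. Over all probe sets tested 3.85% separated in this way (1.79% higher and 2.06% lower in NBC), against 26.1% of the members. The 6 were read from 4 genes, Mmp3, Mmp14 (2 probe sets), Timp2 (2 probe sets) and Timp4. The same 6 had an unadjusted p under 0.05, where 6.22% of all probe sets did (3.28% higher and 2.94% lower in NBC). Probe sets of 1 gene read the same transcripts and are not independent, and the members were chosen with earlier results on Mmp3 and Mmp14 known. With each gene represented by its brightest probe set, 2 of 10 genes separated, Mmp3 and Mmp14, against 3.93% of the 11662 genes tested.

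Among the 23 probe sets, 14 had a higher and 9 a lower mean log2 signal in NBC mice. Of the 11 proteinase probe sets 9 lay higher, with a median log2 difference of 0.24. The 12 inhibitor probe sets were split, 5 higher and 7 lower, with a median of -0.14, and the median over all 22519 probe sets was -0.010. Timp2 and Timp1 accounted for the higher inhibitor probe sets, and all probe sets of Timp3 and Timp4 lay on the lower side. Without NBC mouse 13 the 23 were split into 11 higher and 12 lower, and without NBC mouse 5 into 17 and 6. In bulk tissue a lower or higher number of cells of a type cannot be told apart from less or more RNA per cell.

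**Figure D1:**
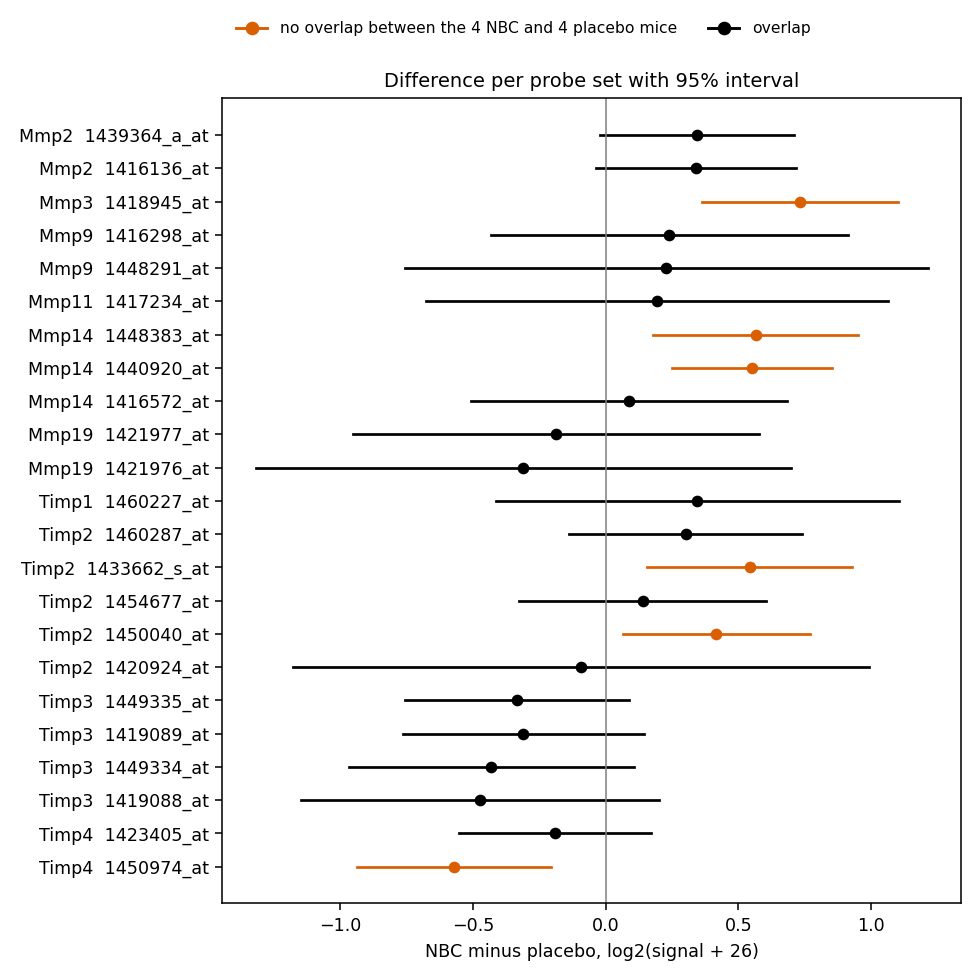
Log2 difference (NBC minus placebo, x axis) of each of the 23 member probe sets that passed the filter (y axis), with the 95% interval of limma's fit. The 5 orange probe sets to the right of 0 belong to Mmp3, Mmp14 and Timp2 and the single orange one to the left to Timp4, while Mmp9, Mmp11, Mmp19 and Timp1 have wide intervals that include 0.

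Mmp3, stromelysin 1, cuts proteoglycans, laminin and fibronectin and can activate other pro-MMPs. Its single probe set, 1418945_at, read 5025, 4608, 4038 and 3858 in NBC mice 13, 11, 9 and 5, against 2591, 2453, 3406 and 2155 in placebo mice 6, 8, 10 and 14. All 4 NBC mice lay above all 4 placebo mice, and the gap was narrowest between NBC mouse 5 and placebo mouse 10. Means were 4382 ± 535 (SD, n = 4) in NBC and 2651 ± 535 (SD, n = 4) in placebo mice, a ratio of 1.65 and a log2 difference of 0.73 (SE 0.16). This was rank 38 of 22519 by p, and limma's adjusted p was 0.653. With 1 mouse left out at a time the difference ranged from 0.64 (without placebo mouse 14) to 0.86 (without placebo mouse 10). The skeletal muscle markers were high in NBC mice 13, 11 and 5 but not in NBC mouse 9, and their part in the Mmp3 signal was not tested.

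Mmp14, the membrane-bound collagenase MT1-MMP, was read by 3 probe sets. The brightest, 1448383_at, gave 9885, 6207, 6120.3 and 6137 in NBC mice 13, 11, 9 and 5, against 4357, 4698, 4919 and 4748 in placebo mice 6, 8, 10 and 14. The placebo mice lay within a narrow range, NBC mice 11, 9 and 5 clustered above them, and NBC mouse 13 stood far above the rest. Its means were 7087 ± 1866 (SD, n = 4) in NBC and 4680.2 ± 236 (SD, n = 4) in placebo mice, and its log2 difference was 0.56 (SE 0.17), or 0.39 without NBC mouse 13 (limma's adjusted p = 0.73 over all mice). The probe set 1440920_at gave 2072, 1810.0, 2154 and 1546 in NBC mice 13, 11, 9 and 5, against 1331, 1341, 1194 and 1234 in placebo mice 6, 8, 10 and 14, again with no overlap and without a single outlying mouse. It differed by 0.55 (SE 0.13), rank 74 of 22519 by p, and by 0.49 to 0.65 with 1 mouse left out. The dimmer 1416572_at gave 1754, 954, 1854 and 866 in NBC mice 13, 11, 9 and 5, against 1055, 1407, 1065 and 1334 in placebo mice 6, 8, 10 and 14. Here NBC mice 13 and 9 were the highest of the 8 and NBC mice 11 and 5 the lowest, so the placebo range lay inside the NBC range, and the log2 difference was 0.09 (SE 0.26).

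Mmp2, gelatinase A, digests denatured collagen and basement membrane collagen, and Mmp14 activates its precursor. Its 2 probe sets moved together over the 8 mice (Pearson r = 0.97, as a description). The brighter one, 1439364_a_at, read 12558, 10190.4, 9653 and 8549 in NBC mice 13, 11, 9 and 5, against 6567, 8245, 9537 and 7879 in placebo mice 6, 8, 10 and 14. NBC mice 13, 11 and 9 exceeded every placebo mouse, and NBC mouse 5 lay within the placebo range. The log2 difference was 0.34 (SE 0.16) there and 0.34 (SE 0.17) in 1416136_at, and neither passed (limma's adjusted p = 0.778 and 0.78). Placebo mouse 10 was the highest placebo mouse in both, and without it both probe sets separated the groups.

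Mmp9, gelatinase B, is made mainly by neutrophils and macrophages. Its brighter probe set, 1416298_at, read 675, 583, 1151 and 739.5 in NBC mice 13, 11, 9 and 5, against 403, 549, 1029 and 736 in placebo mice 6, 8, 10 and 14. NBC mouse 9 and placebo mouse 10 were highest, and the groups overlapped throughout, with a log2 difference of 0.24 (SE 0.30) that became 0.027 without placebo mouse 6, 0.045 without NBC mouse 9 and 0.46 without placebo mouse 10. The dimmer one, 1448291_at, read 169 to 420.0 in NBC and 105 to 567 in placebo mice, close to the filter limit of 275, and its difference of 0.23 (SE 0.44) became -0.14 without placebo mouse 8. The 2 probe sets did not follow each other (r = -0.0052 over the 8 mice). The summed signal of the 8 neutrophil markers named by the annotation was 13588 to 31783 in NBC and 17898 to 36327 in placebo mice. S100a8 was the brightest of these markers in every mouse. In NBC mouse 11 it read 19235, while S100a9 (479), Mpo (20.5), Ngp (179) and Camp (14.4) were the lowest of the 8 mice. Elane, Csf3r and Ltf were not lowest there. The part of the neutrophil sum in the Mmp9 values was not tested.

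Mmp11, stromelysin 3, is activated by furin before secretion and is known from stroma and regressing tissue. Its probe set 1417234_at read 839, 259, 570.0 and 499 in NBC mice 13, 11, 9 and 5, against 584, 634, 227 and 418 in placebo mice 6, 8, 10 and 14. NBC mouse 13 was highest and placebo mouse 10 lowest, and NBC mouse 11 lay nearly as low. The difference of 0.19 (SE 0.39) was smaller than the spread within either group and turned to -0.096 without placebo mouse 10.

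Mmp19, a proteinase of basement membrane proteins, was read by 2 probe sets that moved together (Pearson r = 0.93 over the 8 mice). The brighter, 1421977_at, gave 5788, 3039.5, 3695 and 1767 in NBC mice 13, 11, 9 and 5, against 3922, 4955, 2648 and 3772 in placebo mice 6, 8, 10 and 14. NBC mice 13 and 5 were the highest and lowest of all 8 animals, and the log2 difference was -0.19 (SE 0.34). The dimmer, 1421976_at, gave -0.31 (SE 0.45) with the same 2 mice at the ends. Without NBC mouse 5 the differences were 0.11 and 0.086, so that the sign of the Mmp19 difference turned when that mouse was left out.

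Timp2, the inhibitor that bridges Mmp14 and pro-Mmp2, had 6 probe sets, of which 5 passed the filter. In 1433662_s_at the signals were 27309.5, 20807, 15638 and 18449 in NBC mice 13, 11, 9 and 5, against 14724, 14095, 13698 and 12813 in placebo mice 6, 8, 10 and 14. All NBC mice lay above all placebo mice, by the smallest margin in NBC mouse 9. Its means were 20551 ± 4977 (SD, n = 4) in NBC and 13833 ± 800.3 (SD, n = 4) in placebo mice, with a log2 difference of 0.54 (SE 0.17) over all mice and 0.40 without NBC mouse 13 (limma's adjusted p = 0.73 over all mice). The probe set 1450040_at gave 6150.2, 4984, 4234 and 3983 in NBC mice 13, 11, 9 and 5, against 3299, 3907, 3346 and 3749 in placebo mice 6, 8, 10 and 14, and the smallest NBC value exceeded the largest placebo value only slightly. It differed by 0.42 (SE 0.16), or by 0.29 without NBC mouse 13, and its groups overlapped once the arrays were centred on their medians.

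The other Timp2 probe sets overlapped. The brightest, 1460287_at, read 29113, 17538, 18095 and 18183 in NBC mice 13, 11, 9 and 5, against 16573, 17781, 13224 and 18686 in placebo mice 6, 8, 10 and 14. Apart from NBC mouse 13 the NBC mice lay within the placebo range, and the log2 difference of 0.30 (SE 0.19) became 0.13 without that mouse. Another, 1454677_at, differed by 0.14 (SE 0.21), and by -0.032 without NBC mouse 13. In 1420924_at the signals were 2389.8, 747, 2831 and 577 in NBC mice 13, 11, 9 and 5, against 1387, 1638, 1189 and 1431 in placebo mice 6, 8, 10 and 14. NBC mice 9 and 13 were the highest and NBC mice 5 and 11 the lowest of the 8, the same split as in Mmp14 1416572_at, and the difference was -0.09 (SE 0.48). The dimmest, 1437081_at, read 9.4 to 138 in NBC and 12.9 to 94.1 in placebo mice and lay below the filter.

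Timp4, an inhibitor found at high levels in fat and heart, was read by 2 probe sets. In 1450974_at the signals were 14526, 18994, 18801 and 12852 in NBC mice 13, 11, 9 and 5, against 25074, 23959, 26384 and 20601 in placebo mice 6, 8, 10 and 14. Every NBC mouse lay below every placebo mouse. The means were 16293 ± 3085 (SD, n = 4) in NBC and 24004 ± 2476 (SD, n = 4) in placebo mice, a ratio of 0.679, and the log2 difference was -0.57 (SE 0.16), at an adjusted p of 0.718 in limma and with a range of -0.65 to -0.47 when 1 mouse was left out. The brighter probe set, 1423405_at, gave 34790.0, 51292, 35416 and 48483 in NBC mice 13, 11, 9 and 5, against 51301, 43149, 50119 and 46754 in placebo mice 6, 8, 10 and 14. There NBC mice 13 and 9 were the lowest of the 8 and NBC mice 11 and 5 lay within the placebo range, and the difference was -0.19 (SE 0.16).

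**Figure D2:**
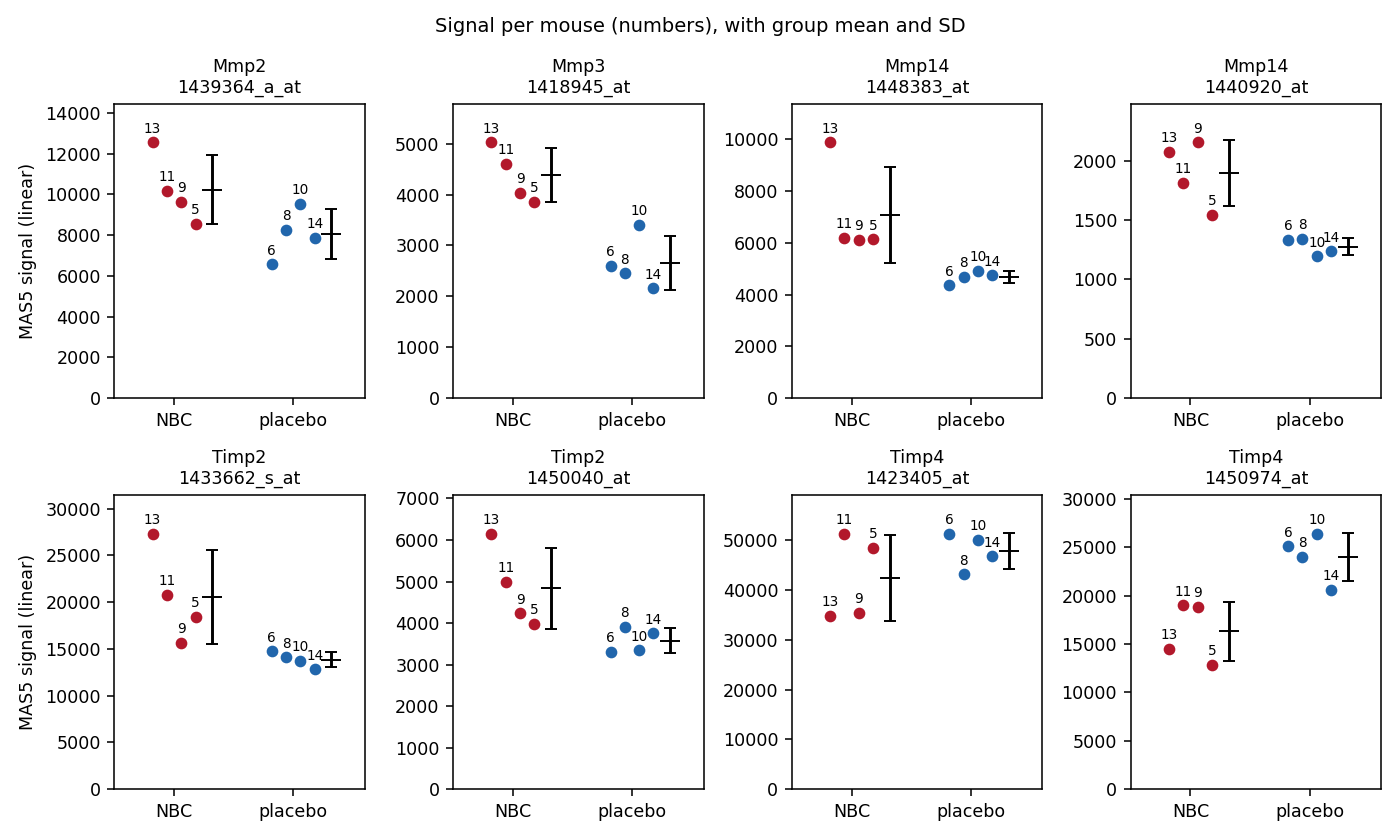
MAS5 signal (y axis, linear, from 0) of 8 probe sets of Mmp3, Mmp14, Mmp2, Timp2 and Timp4 in the 4 NBC mice (red, left) and the 4 placebo mice (blue, right), each point labelled with its mouse number, with the group mean and SD in black. The NBC points lie wholly above the placebo points for Mmp3, both Mmp14 and both Timp2 probe sets and wholly below for Timp4 1450974_at, and overlap them for Mmp2 and for Timp4 1423405_at.

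Timp3, the inhibitor that stays bound to the matrix and also blocks sheddases such as Adam17, had 4 probe sets, all with a lower mean in NBC mice. The brightest, 1449335_at, read 8457, 11880.5, 11912 and 7926 in NBC mice 13, 11, 9 and 5, against 11883, 12694, 15412 and 10328 in placebo mice 6, 8, 10 and 14. NBC mice 13 and 5 lay below all placebo mice and NBC mice 11 and 9 within their range, and the difference was -0.33 (SE 0.19). The others differed by -0.31 (SE 0.20) in 1419089_at, -0.43 (SE 0.24) in 1449334_at and -0.47 (SE 0.30) in 1419088_at. None separated the groups, and limma's adjusted p lay between 0.790 and 0.815. NBC mouse 5 was the lowest of the 8 mice in all 4. Without it the 4 differences ranged from -0.25 to -0.20.

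Timp1, a soluble inhibitor that responds to cytokines and is weak against membrane-bound MMPs, had the single probe set 1460227_at. It read 4041, 2062, 1946 and 1816 in NBC mice 13, 11, 9 and 5, against 1799, 2412, 1027 and 2505 in placebo mice 6, 8, 10 and 14. NBC mouse 13 stood far above the rest, placebo mouse 10 was lowest, and the other 6 mice were intermixed. The log2 difference of 0.34 (SE 0.34) became 0.082 without NBC mouse 13 and 0.072 without placebo mouse 10. The macrophage marker sum had its highest and lowest values in the same 2 mice, and its part in the Timp1 signal was not tested.

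**Figure D3:**
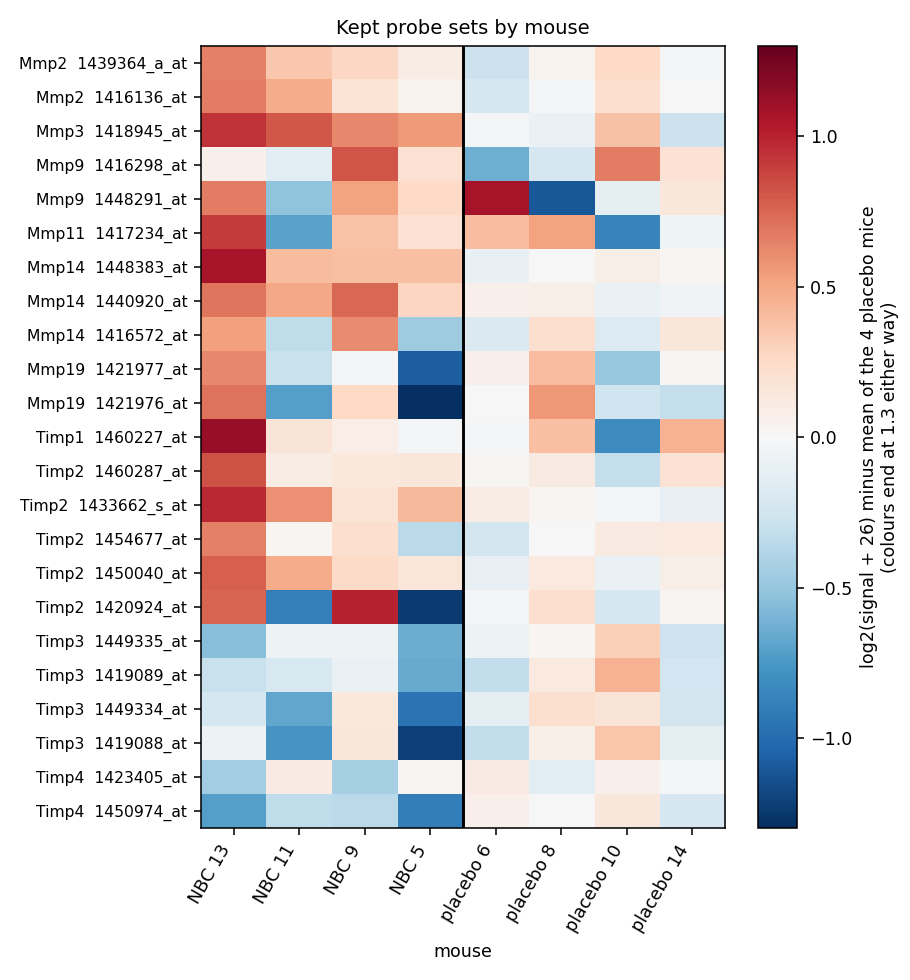
Log2(signal + 26) of the 23 member probe sets (rows) in each mouse (columns, NBC left of the line and placebo right), shown as the difference from the mean of the 4 placebo mice, with colours capped at 1.3 either way. NBC mouse 13 is red in most rows from Mmp2 to Timp2, NBC mouse 5 is deep blue for Mmp19, Timp2 1420924_at and Timp3, and the Timp4 1450974_at row is blue in all 4 NBC mice.

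NBC mouse 13 had the highest signal of the 8 mice in 12 of the 23 member probe sets, against 15.6% of all probe sets tested, and NBC mouse 5 had the lowest in 10, against 18.1% of all. Of the 6 separated probe sets, 5 had an unadjusted p under 0.05 in every fit with 1 mouse left out, and the exception was Timp2 1450040_at, whose p in limma was 0.061 without NBC mouse 13, 0.057 without NBC mouse 11, 0.064 without placebo mouse 6 and 0.060 without placebo mouse 10. Within the groups, after the group means were removed, the brightest probe sets of Timp1 and Timp2 followed each other most closely of the 45 gene pairs (r = 0.95, 8 mice, a description that shares array scaling and tissue makeup). Next came Mmp19 with Timp1 (r = 0.80), Mmp14 with Timp2 (r = 0.78), Mmp14 with Mmp2 (r = 0.77) and Mmp19 with Timp2 (r = 0.77). Mmp11 followed Timp2 (r = 0.75) and Timp1 (r = 0.72), and Mmp3 followed Mmp2 (r = 0.69). Timp4 ran against Mmp19 (r = -0.75) and Mmp11 (r = -0.68), and Timp3 against Timp2 (r = -0.64). NBC mouse 13 was the highest of the 8 mice in the brightest probe sets of Mmp2, Mmp3, Mmp11, Mmp14, Mmp19, Timp1 and Timp2. It was the lowest in that of Timp4, and r without this mouse was not computed. Among the placebo mice, mouse 10 had the highest Mmp14 and the lowest Timp2 signal in these probe sets.

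Probe sets of the same gene gave unlike differences for Mmp14, Timp2 and Timp4, and this was examined per mouse. For each gene with several probe sets, the log2 signal of each further probe set was subtracted from that of the brightest one, and the result was compared between NBC and placebo mice. None of 14 such pairs had a p under 0.05 in the two-sided exact permutation test over mice (smallest p = 0.143, adjusted p = 1). With 4 against 4 mice this test gives no p below 0.0286. An adjusted p under 0.05 would therefore need many pairs at that floor together, and the test cannot show that the probe sets agreed. The widest differences between pairs were 0.48 for Mmp14 (1448383_at minus 1416572_at), 0.39 for Timp2 (1460287_at minus 1420924_at) and 0.38 for Timp4 (1423405_at minus 1450974_at), on the log2 scale. Without NBC mouse 9, the Mmp14 and the Timp4 pair differed by 0.71 and 0.54, each at the smallest p that 3 against 4 mice allow in the exact test (0.0286). After Benjamini-Hochberg adjustment 0 of the pairs passed, which so few pairs at that floor could not do.

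These 3 gaps ran with the Gapdh 3′ to 5′ ratio, whose part in them was not tested. The Mmp14 gap was 2.48, 2.67, 1.71 and 2.79 in NBC mice 13, 11, 9 and 5, against 2.02, 1.72, 2.18 and 1.81 in placebo mice 6, 8, 10 and 14. It was widest in NBC mice 5 and 11, which had the highest Gapdh ratios, and narrowest in NBC mouse 9, which had the lowest. Across the 8 mice, Pearson's r between the gap and the log2 ratio was 0.95 for Mmp14, 0.94 for Timp2 and 0.92 for Timp4, given as descriptions. These were the highest r of the 14 pairs, and the others lay between -0.67 (Timp2 1460287_at minus 1433662_s_at) and 0.72 (Mmp19). Among single probe sets r was lowest for Timp3 1449334_at (-0.91) and 1419088_at (-0.89), Timp2 1420924_at (-0.80), Mmp19 1421976_at (-0.72) and Mmp14 1416572_at (-0.70), and among the 6 separated probe sets it was -0.63 for Timp4 1450974_at, 0.57 for Timp2 1433662_s_at, 0.47 for Mmp3, 0.35 for Mmp14 1448383_at, 0.29 for Timp2 1450040_at and 0.13 for Mmp14 1440920_at.

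A fit with the log2 Gapdh ratio as a covariate, chosen after the values were seen, kept the direction of all 6 separated probe sets. In it Mmp3 differed by 0.72 (SE 0.19), Mmp14 by 0.59 (SE 0.20) in 1448383_at and 0.69 (SE 0.12) in 1440920_at, and Timp4 by -0.47 (SE 0.18) in 1450974_at. The difference of Mmp14 1416572_at was 0.47 (SE 0.18) in place of 0.09, that of Timp4 1423405_at -0.37 (SE 0.14) in place of -0.19, and that of Timp2 1420924_at 0.65 (SE 0.29) in place of -0.09. Both Mmp19 probe sets turned from lower to higher, to 0.14 (SE 0.35) in 1421977_at and 0.24 (SE 0.39) in 1421976_at. The dimmer Timp3 probe sets moved towards 0, to -0.092 (SE 0.16) in 1449334_at and -0.048 (SE 0.21) in 1419088_at. No probe set of the array passed the adjusted threshold of this limma fit. The ratio lay above every placebo mouse in NBC mice 13, 11 and 5 and below every placebo mouse in NBC mouse 9. The skeletal muscle markers split the NBC mice in the same way. The ratio therefore cannot be told apart from group and muscle signal here, and their parts in these values were not tested.

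**Figure D4:**
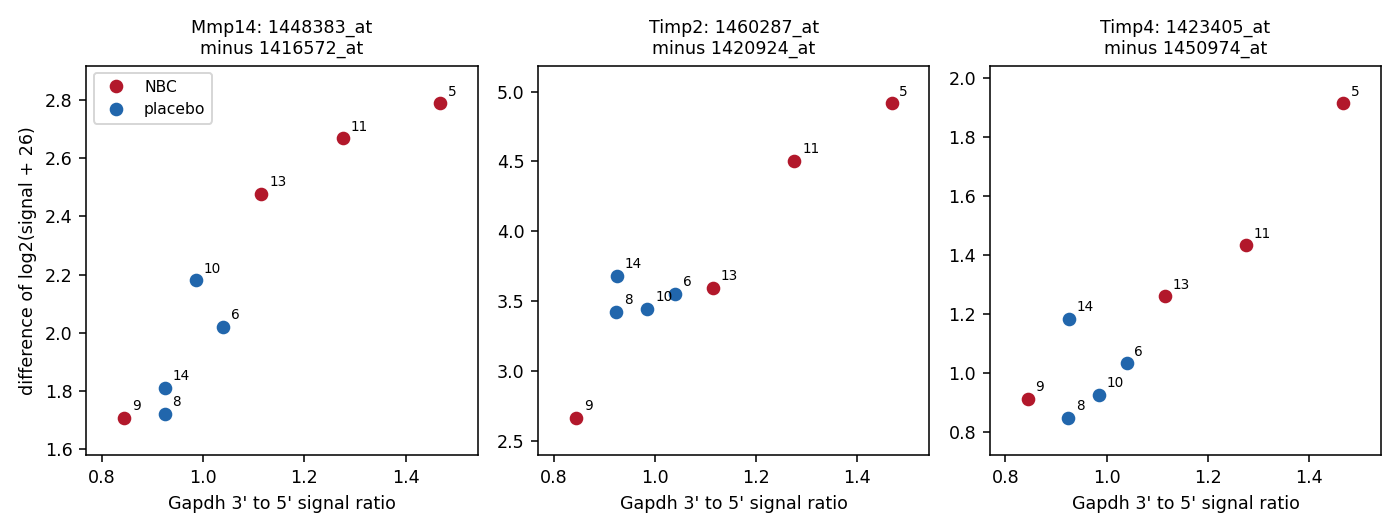
Gap between 2 probe sets of the same gene (difference of log2(signal + 26), y axis) against the Gapdh 3′ to 5′ signal ratio (x axis) for Mmp14, Timp2 and Timp4, 1 point per mouse (NBC red, placebo blue, labelled with the mouse number). The 3 pairs were picked for their high r with the log2 ratio. In all 3 panels the gap is widest in NBC mice 5 and 11, where the ratio was 1.47 and 1.28. In NBC mouse 9, with a ratio of 0.844, it is the narrowest for Mmp14 and Timp2 and near the narrowest for Timp4.

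Genes of the wider proteolytic system were taken from 7 lists, with each gene represented by its brightest probe set past the filter. No list member passed limma's adjusted threshold. Of 17 other MMP genes only Mmp12 and Mmp23 passed the filter, 10 lay below it, and no probe set was annotated to exactly 1 of the other 5. Both had higher means in NBC mice (0.33, SE 0.63 for the macrophage elastase Mmp12 and 0.25, SE 0.19 for Mmp23). Of 15 measured ADAM and ADAMTS genes 11 lay higher and 4 lower in NBC, with a median log2 difference of 0.12 against -0.0064 over all 11662 genes, and 0 separated the groups. The only one of them with an unadjusted p under 0.05 was Adam17 (0.45, SE 0.14), a sheddase that Timp3 inhibits, and its 2 other probe sets past the filter gave 0.15 and -0.066. The share of all genes with an unadjusted p under 0.05 was 5.44%.

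The list for the plasminogen system, whose product plasmin can activate pro-MMPs, had 1 of 5 measured genes higher and 4 lower (median -0.035). None of them separated the groups. Serpinf1 (-0.0067), 1 of the 4 lower genes, is not a component of that system. Plg, Serpinb2 and Serpinf2 lay below the filter. Of the 13 other activators, inhibitors and clearance receptors, 8 lay higher and 5 lower (median 0.021). Thrombospondin 1, which binds pro-MMPs, was the only one that separated, where 3.93% of all 11662 genes did. It read 3986 ± 1729.6 (SD, n = 4) in NBC and 8009 ± 1143 (SD, n = 4) in placebo mice, with a log2 difference of -1.08 (SE 0.26). The margin was narrow, with 6495.5 in NBC mouse 9 against 6561.3 in placebo mouse 10. NBC mice 13, 11 and 5, in which the skeletal muscle markers were high, read 3587, 3310.1 and 2550.5. The part of the muscle signal in this difference was not tested. The other thrombospondin 1 probe set past the filter gave -0.91 (SE 0.36). The furin gene Furin (0.05, SE 0.15) and the membrane-anchored MMP inhibitor Reck (0.19, SE 0.13) overlapped. Of 9 cathepsin and cell-surface turnover genes 8 lay higher (median 0.074), with 0 separated. Fap (0.35, SE 0.15) was the only one of these with an unadjusted p under 0.05 in limma, where 5.44% of all genes had one. Of 12 cytokine and transcription factor genes known to induce MMPs or TIMPs, 10 lay higher (median 0.13), with 0 separated and 0 at an unadjusted p under 0.05.

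Of the matrix substrates, 23 of 25 genes lay higher in NBC (median 0.20) and 6 of them separated, where 5658 of all 11662 genes lay higher and 3.93% separated. The list shares Dcn and Lum with the fibroblast markers, whose sum was also higher in every NBC mouse, and the part of that sum in the substrate signals was not tested. This list overlaps a matrix list already known to lie higher in these mice and is not independent of it. The 4 separated genes with the smallest p were Col6a3 (0.43, SE 0.15), Col1a1 (0.36, SE 0.14), Col1a2 (0.35, SE 0.14) and the laminin chain gene Lamb1 (0.24, SE 0.10). NBC mouse 13 was the highest of the 8 mice in Col6a3, Col1a1 and Col1a2 but not in Lamb1. Their differences without that mouse are not given here. The other probe sets of Lamb1 past the filter gave 0.063 and -0.40. No substrate gene passed limma's adjusted threshold.

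The genes whose log2 signals followed the members most closely over the 8 mice were ranked by Pearson's r among the 11662 genes, members left out. For Mmp3 these were Krt79 (r = 0.96), Pam (r = 0.93), Acta1 (r = 0.93), Col6a2 (r = 0.93) and Ogfrl1 (r = 0.93). Acta1 encodes the actin of skeletal muscle, and Col6a2 a chain of collagen VI. For Mmp14 they were Col1a1 (r = 0.98), Procr (r = 0.97), Wdr7 (r = 0.97), Cmip (r = 0.95) and Frrs1 (r = 0.95), of which Col1a1 encodes a chain of collagen I and Procr the endothelial protein C receptor. For Timp1 they were Bgn (r = 0.98), Capg (r = 0.98), Pirb (r = 0.98), Emp3 (r = 0.98) and Colgalt1 (r = 0.98). Bgn encodes the matrix proteoglycan biglycan, and Capg an actin-capping protein abundant in macrophages. With 8 mice and this many genes, such values describe these arrays only.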

How the data were processed

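Per the submitters' processing notes the deposited intensity of each probe set, linear and 1 per array, came from MAS5. The authors' scaling, scanner and batches are not stated in what was used here, and no rescaling was applied. Groups and mouse numbers came from sample titles. Of 45101 probe sets, 64 controls were left out, and the platform annotation named exactly 1 gene for 34945. Signals entered as log2(signal + 26), 26 being near the 10th percentile of all values. The 22519 probe sets at or above the median mean log2 value (a signal of 275) were tested with limma 3.58.1 under R 4.3.3 without covariates. Benjamini-Hochberg adjustment covered all 22519. Of 24 member probe sets 23 passed this filter. SDs are of linear signals, SEs of log2 differences are limma's moderated ones, and n counts mice, whose number limits the precision. The fit was also run on arrays simulated with independent normal noise per probe set. These lack differences between mice that many probe sets share, so that run does not test such differences. The text names all member probe sets, up to 4 separated genes per list by p, and the 5 genes most like Mmp3, Mmp14 and Timp1. Alternatives were 2 pseudocounts, 2 filters, 2 normalizations, eBayes with a trend, array weights, leaving out each mouse and, added after seeing the data, the Gapdh ratio as a covariate. Members, lists and tests were chosen with earlier results of these data known.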

Additional observations from a re-analysis of the deposited data

Results flagged for a closer look

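In each group of 4 mice, a mouse was singled out when its gap to the nearest other mouse exceeded Dixon's 95% critical share of the group's range, which chance alone gives in about 1 in 20 groups. Of 48 groups examined (24 probe sets in NBC and placebo mice), 4 held such a mouse, all in NBC. NBC mouse 13 stood above the other NBC mice with 9885 for Mmp14 1448383_at, 4041 for Timp1 1460227_at and 29113 for Timp2 1460287_at. NBC mouse 5 stood above them with 138 for the dim Timp2 1437081_at, which lay below the filter.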

How the results depend on the processing

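The 23 kept member probe sets gave 0 calls at limma's adjusted threshold under all 17 alternatives, with a smallest adjusted p of 0.253 (without NBC mouse 9). Over the whole array the number of adjusted calls ranged from 0 to 18 when 1 mouse was left out, with 18 only without NBC mouse 9, and was 0 in every other alternative run. The number of probe sets with an unadjusted p under 0.05 was 1400, ranged from 1037 to 2549 with 1 mouse left out (2549 without NBC mouse 9), and was 2396 with no filter and 2126 with array weights. Of the member probe sets, 5 to 8 separated the groups and 5 to 9 had an unadjusted p under 0.05. Pairs of probe sets with an exact permutation p under 0.05 numbered 0 to 2 with 1 mouse left out, with 2 only without NBC mouse 9. For the 10 genes, 177 log2 differences were recomputed from the brightest probe set or the mean of the kept probe sets. Of these 172 kept their sign and 5 did not. These were Mmp11, at -0.092 with array weights and from -0.096 to 0.49 with 1 mouse left out, and Mmp19, at 0.14 with the Gapdh ratio as a covariate and from -0.46 to 0.11 with 1 mouse left out, and the cause was not tested. No paired analysis was possible because no mouse number occurs in both groups.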

Other observations

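Mmp12, the macrophage elastase, read 50216, 7606, 11712 and 5666 in NBC mice 13, 11, 9 and 5, against 11040.1, 13114, 5410.5 and 12888 in placebo mice 6, 8, 10 and 14. NBC mouse 13 stood far above the rest, the same mouse in which the macrophage and mast cell marker sums were highest. The summed signal of the 5 lymphocyte markers named by the annotation was 642, 763, 6090.3 and 9073 in NBC mice 13, 11, 9 and 5, against 5687, 4386, 3362 and 4105 in placebo mice 6, 8, 10 and 14, with NBC mice 13 and 11 far below the other 6.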
